A study of Rattus norvegicus with 4 samples.

Results

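The interferon regulatory factors, or IRFs, were examined in AA4-selected preparations from the pancreatic lymph nodes of diabetes-prone and diabetes-resistant rats. The preparations are labelled as mast cells, but transcripts of other cell types were also bright in them, as given below. The members were Irf1, Irf2, Irf3, Irf4, Irf5, Irf7, Irf8 and Irf9, taken as every probe set to which the platform's annotation gives one of these names alone. This found 10 probe sets for 7 of the 8 genes, among 31042 probe sets that were not controls. Irf4 was not analysed here, because no probe set carries its name in that annotation.

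Female BioBreeding rats were used at day 65. DRlyp/lyp rats, titled DP in the labels, are homozygous for lyp, a mutation of Gimap5 that leaves them short of peripheral T cells and prone to autoimmune diabetes. DR+/+ rats, titled DR, carry the normal gene and resist the disease. Each group is 1 pool of RNA from 8 animals. The pool was amplified 2 times independently, and each product went onto its own Affymetrix rat array, which gave 4 arrays in all. Each value is therefore 1 of 2 technical measurements of 1 pool. The labels alone assign the pools. Gimap5 read 518 and 515 on the DRlyp/lyp arrays, against 399.8 and 532 on the DR+/+ arrays, which overlapped, and its level does not show which allele a pool carries. T cell markers ran against the shortage of T cells known for lyp: summed over 19 of them, signal was 14058 and 13959 on the DRlyp/lyp arrays, against 4073 and 4341 on the DR+/+ arrays. Of 17 tested, 16 were higher and Cd4 was lower in the DRlyp/lyp pool. Over all 9349 genes tested, 20.9% were higher and 21.1% lower. Cd4 was dim, at 20.7 and 10.6 on the DRlyp/lyp arrays, against 43.7 and 50.3 on the DR+/+ arrays. Every direction given here rests on those labels. The p-values compare 2 pools of RNA and say nothing of the spread between animals, and the number of arrays limits the precision.

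IRFs are transcription factors that share a DNA-binding domain marked by conserved tryptophans, and they recognise repeats of GAAA in the promoters of interferon-responsive genes. Irf3 and Irf7 start the production of type I interferon when sensors of foreign nucleic acid are engaged. Irf9 joins STAT proteins in the complex ISGF3, which carries the response to type I interferon. Irf1 acts downstream of interferon-gamma, Irf2 competes with Irf1 for its sites, Irf5 serves Toll-like receptor signalling, and Irf4 and Irf8 act mainly in lymphocyte, dendritic and macrophage lineages. Several IRF genes are themselves induced by interferon, through the gamma-activated site (GAS) or the interferon-stimulated response element (ISRE).

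The promoters of the 4 genes below are shown because each has a probe set that was lower in the DRlyp/lyp pool, for Irf9 1 of 2, and a window that holds one of these motifs. Each window covers 250 bases before to 50 bases after the annotated start in RefSeq's GRCr8 assembly, written 5′ to 3′ in the direction of transcription. Capitals mark matches to TTCNNNGAA, the GAS letters, or to GAAA, 2 bases of any kind and GAAA, the core ISRE letters, on either strand.
Irf1, chr10:38417685-38417984, plus strand: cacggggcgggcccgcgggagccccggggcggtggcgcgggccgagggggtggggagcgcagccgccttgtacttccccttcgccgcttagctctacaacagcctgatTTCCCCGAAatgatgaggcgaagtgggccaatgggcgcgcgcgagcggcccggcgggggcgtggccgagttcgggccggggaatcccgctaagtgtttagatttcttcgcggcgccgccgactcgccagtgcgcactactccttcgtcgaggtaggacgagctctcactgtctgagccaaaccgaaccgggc
Irf7, chr1:205799974-205800273, minus strand: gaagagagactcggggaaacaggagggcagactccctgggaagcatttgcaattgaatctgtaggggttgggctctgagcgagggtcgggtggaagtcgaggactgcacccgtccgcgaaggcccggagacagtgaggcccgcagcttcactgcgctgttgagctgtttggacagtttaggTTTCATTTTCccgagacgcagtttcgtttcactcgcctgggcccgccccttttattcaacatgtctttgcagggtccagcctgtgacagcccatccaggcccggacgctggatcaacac
Irf8, chr19:65699034-65699333, plus strand: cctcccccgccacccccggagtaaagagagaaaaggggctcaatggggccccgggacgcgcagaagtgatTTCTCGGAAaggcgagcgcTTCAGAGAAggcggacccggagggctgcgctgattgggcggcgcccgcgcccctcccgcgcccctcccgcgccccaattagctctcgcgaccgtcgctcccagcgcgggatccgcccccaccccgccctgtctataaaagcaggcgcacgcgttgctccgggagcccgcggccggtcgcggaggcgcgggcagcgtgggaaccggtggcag
Irf9, chr15:33065586-33065885, plus strand: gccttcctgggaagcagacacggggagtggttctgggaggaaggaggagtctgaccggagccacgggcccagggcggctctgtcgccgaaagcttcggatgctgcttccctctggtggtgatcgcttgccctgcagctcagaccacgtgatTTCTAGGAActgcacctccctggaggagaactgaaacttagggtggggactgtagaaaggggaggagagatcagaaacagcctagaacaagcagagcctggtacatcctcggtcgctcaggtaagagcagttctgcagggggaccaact

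The Irf1, Irf8 and Irf9 windows held GAS letters, with 1 match in Irf1, 2 in Irf8 and 1 in Irf9. Counted from the start, with bases before it negative, the Irf1 match lay at -142 to -134 and those of Irf8 at -180 to -172 and -161 to -153. The Irf9 match lay at -99 to -91. The Irf7 window held 1 ISRE core match, on the strand opposite to transcription, at -69 to -60. The Irf3 and Irf5 windows held neither set of letters, and no window of Irf2 was used here. Whether these letters go with the direction of a gene was not tested. Of 33469 promoters of the same length, 8.87% held the GAS letters and 3.92% the ISRE core letters. TTCNNNGAA reads the same on both strands. No match of one motif overlapped a match of the other in these windows. A match to letters is not a measured binding site.

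**Figure D1:**
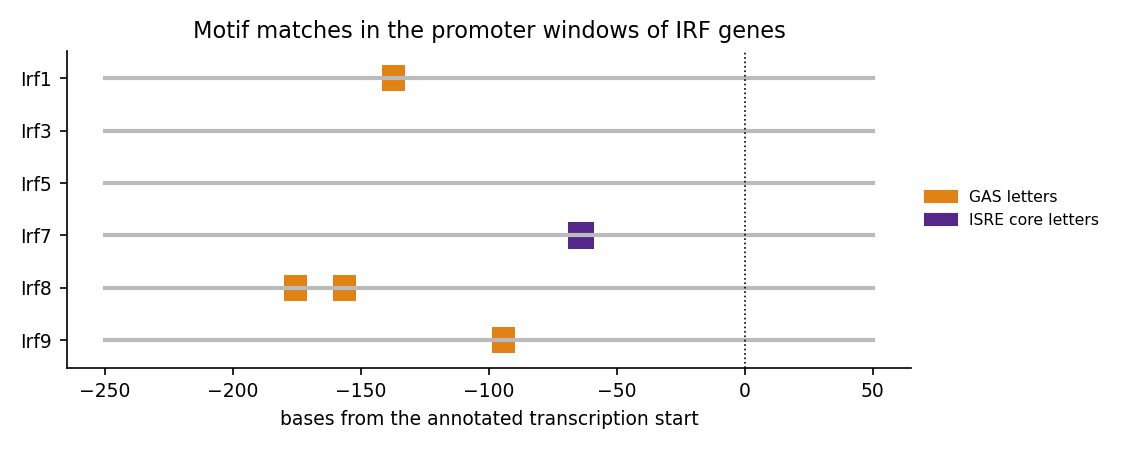
Matches to the GAS letters (TTCNNNGAA) and the ISRE core letters (GAAA repeated after 2 bases) in the promoter windows of 6 IRF genes with a probe set. The horizontal axis gives bases from the annotated transcription start, and coloured blocks mark matches: Irf1, Irf8 and Irf9 hold GAS letters, Irf7 holds ISRE core letters, and Irf3 and Irf5 hold neither.

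Irf8, Irf2, Irf7, Irf1 and 1 of 2 probe sets of Irf9 were lower in the DRlyp/lyp pool, by 1.34- to 1.75-fold. Irf3 was higher by 1.29-fold, and Irf5 and the other probe set of Irf9 did not pass the threshold. Of the 10 probe sets, 8 passed a filter that asked for a signal above 28.3, the median of all values, on at least 2 arrays. Of these 8, 1 was called higher and 5 lower at an adjusted p under 0.05 in limma, with p-values adjusted by Benjamini and Hochberg's method across the 16068 probe sets that passed. Among all probe sets tested 39.2% were called, 19.3% higher and 19.9% lower. The median log2 difference, DRlyp/lyp minus DR+/+, was -0.45 over the 8 IRF probe sets and -0.00050 over all probe sets tested. None of the 8 differed by 2-fold. The calls depended on the settings. With no filter on low signal, 0 were called higher in limma (1 at an unadjusted p under 0.05) and only Irf7 was called lower (5 unadjusted). Without a trend of variance on intensity, 0 were called higher (1 unadjusted) and only Irf7 and Irf8 were called lower (5 unadjusted). In a test against a 1.5-fold difference 0 passed (0 higher and 1 lower unadjusted). The arrays of the pools did not overlap for 7 of the 8, with 5 lower and 2 higher in the DRlyp/lyp pool. Over all probe sets tested 35.4% lay wholly lower and 34.6% wholly higher, so separation of 2 arrays from 2 was common.

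**Figure D2:**
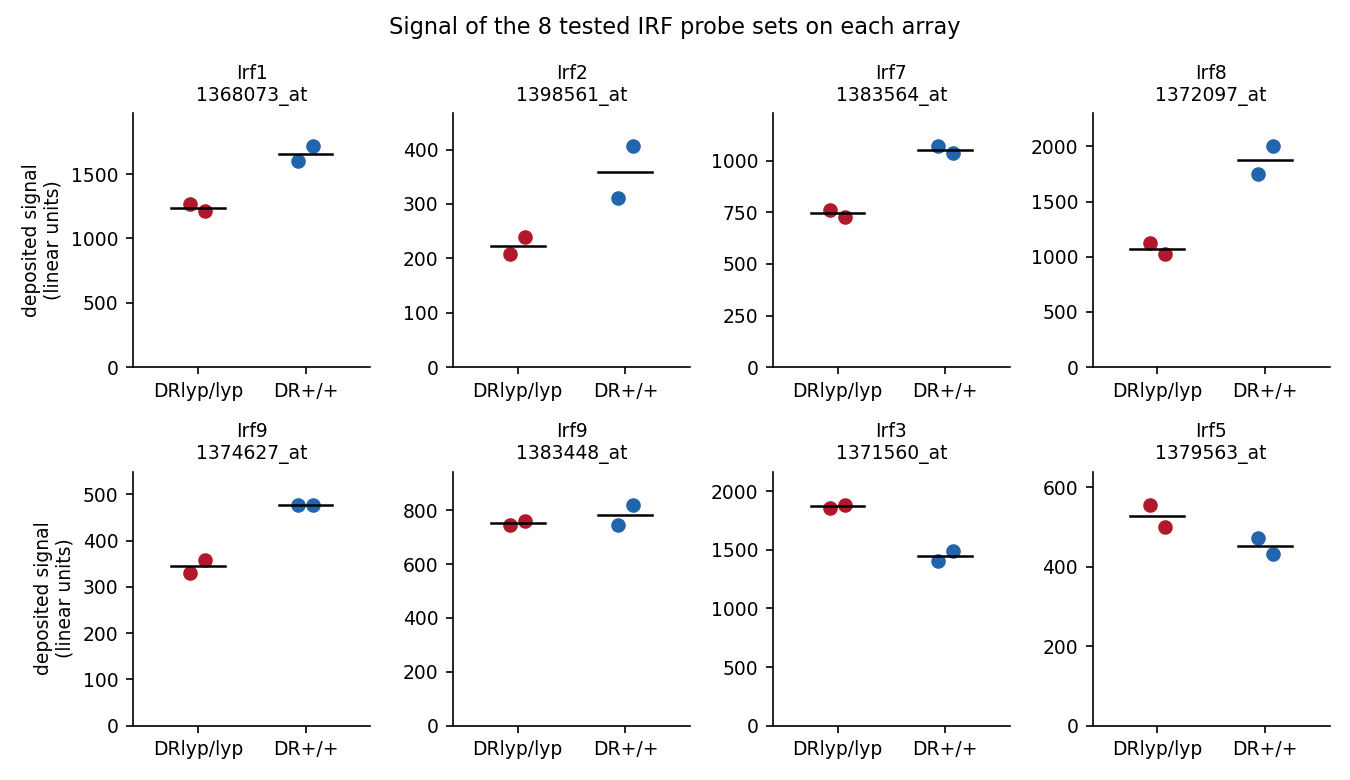
Deposited signal, in linear units from 0, of the 8 tested IRF probe sets on each array, with points for arrays and a bar for the mean of the 2 arrays of a pool. DRlyp/lyp points lie below DR+/+ points for Irf1, Irf2, Irf7, Irf8 and Irf9 probe set 1374627_at, above them for Irf3 and Irf5, and among them for Irf9 probe set 1383448_at.

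The factors that start interferon production moved in opposite directions. Irf7 (probe set 1383564_at), which interferon induces and which amplifies the production of type I interferon, read 762 and 728 on the DRlyp/lyp arrays, against 1071 and 1038 on the DR+/+ arrays. Both DRlyp/lyp values lay below both DR+/+ values. The log2 difference was -0.50 ± 0.086 (SE, 2 arrays per pool), or 1.42-fold lower, with an adjusted p of 0.00073 in limma. Irf3 (1371560_at), which is made constitutively and becomes active when the kinase Tbk1 phosphorylates it, read 1857 and 1886 on the DRlyp/lyp arrays, against 1403 and 1493 on the DR+/+ arrays. Here both DRlyp/lyp values were the higher ones. The log2 difference was 0.37 ± 0.070 (SE, 2 arrays per pool), with an adjusted p of 0.0015 in limma. The Irf3 call was lost when each array was centred on its median (0.26, adjusted p = 0.0534 in limma), a scaling that moved the median difference of all probe sets tested to -0.11. Under that scaling 36.1% of all calls were higher, against 49.3% with the deposited scaling.

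Irf5 (1379563_at), which drives inflammatory cytokine genes after Toll-like receptor signals, read 556 and 499.6 on the DRlyp/lyp arrays, against 472 and 432 on the DR+/+ arrays. The pools did not overlap, yet the gap between them was smaller than the distance between the DRlyp/lyp arrays. The log2 difference of 0.22 had a 95% interval of -0.024 to 0.47 and an adjusted p of 0.139 in limma, and Irf5 was not called.

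Among the factors tied to interferon-gamma, the activator and its competitor were both lower. Irf1 (1368073_at), an activator of antigen presentation genes, read 1268 and 1209 on the DRlyp/lyp arrays, against 1598 and 1717 on the DR+/+ arrays. The arrays of each pool lay close together and the pools were apart. Its log2 difference was -0.42 ± 0.076 (SE, 2 arrays per pool), or 1.34-fold lower, with an adjusted p of 0.0010 in limma. Irf2, which represses genes that Irf1 activates, had 3 probe sets. Probe set 1398561_at read 208 and 239 on the DRlyp/lyp arrays, against 311 and 406 on the DR+/+ arrays. The DR+/+ arrays differed widely between themselves, and the lower of them still exceeded both DRlyp/lyp arrays. The log2 difference was -0.67 ± 0.16 (SE, 2 arrays per pool), with an adjusted p of 0.0054 in limma, and the call was lost without DRlyp/lyp replicate 1 (-0.57, adjusted p = 0.0829 in limma). The other Irf2 probe sets, 1386518_at and 1382503_at, stayed at or below 15.0 on all 4 arrays and were not tested.

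Irf8 had the lowest log2 difference of the members with all arrays in use, and its difference from Irf2 was not tested. Without DRlyp/lyp replicate 2, Irf2 was lower (-0.77) than Irf8 (-0.73). Irf8 is a partner of PU.1 and BATF proteins that dendritic cells, monocytes and B cells need. Irf8 (1372097_at) read 1126 and 1023 on the DRlyp/lyp arrays, against 1752 and 2001 on the DR+/+ arrays. Both DRlyp/lyp values fell well short of the lower DR+/+ value. The log2 difference was -0.80 ± 0.086 (SE, 2 arrays per pool), or 1.75-fold lower, with an adjusted p of 2.8e-05 in limma. Of all probe sets tested, 10.1% had a lower difference than Irf8. Leaving out each array in turn gave differences between -0.90 and -0.71, with adjusted p of at most 0.0021 in limma. The call was lost with no filter on low signal (adjusted p = 0.0682 in limma) and against a 1.5-fold difference (adjusted p = 0.149).

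The probe sets of Irf9, the DNA-binding part of ISGF3, did not move alike. Probe set 1374627_at read 331 and 358 on the DRlyp/lyp arrays, against 478 and 478 on the DR+/+ arrays. Its log2 difference was -0.47 ± 0.11 (SE, 2 arrays per pool), with an adjusted p of 0.0064 in limma, and the call was lost without DRlyp/lyp replicate 1 (-0.42, adjusted p = 0.0913 in limma). Probe set 1383448_at read 747 and 760.3 on the DRlyp/lyp arrays, against 746 and 820.4 on the DR+/+ arrays. These arrays overlapped. The log2 difference was -0.05, with a 95% interval of -0.26 to 0.15 and an adjusted p of 0.68 in limma. Within an array, the log2 ratio of 1374627_at over 1383448_at was -1.18 and -1.09 on the DRlyp/lyp arrays, against -0.64 and -0.78 on the DR+/+ arrays. The pools were apart in this ratio, and the difference between the probe sets was not tested. Which part of the Irf9 transcript each probe set reads is not known here, so the direction of Irf9 as a gene stays unsettled.

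**Figure D3:**
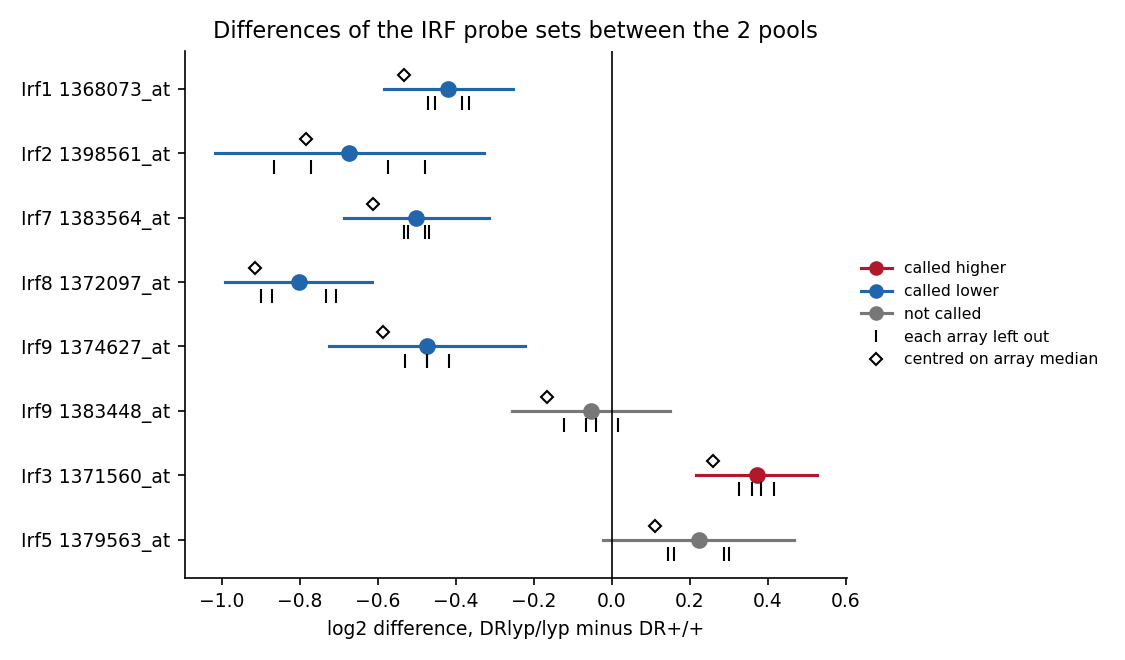
Log2 difference of each IRF probe set, DRlyp/lyp minus DR+/+, with its 95% interval from limma, the values with each array left out in turn (ticks) and the value with each array centred on its median (diamonds). Called lower are Irf1, Irf2, Irf7, Irf8 and Irf9 probe set 1374627_at, called higher is Irf3, and the intervals of Irf5 and Irf9 probe set 1383448_at include 0.

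The IRF differences were moderate among those of the whole array. A share of 23.9% of all probe sets tested had a lower difference than Irf1, 19.9% than Irf7, 21.2% than Irf9 probe set 1374627_at and 13.6% than Irf2. Irf3 lay above 74.4% of all probe sets tested. By mean log2 signal, Irf1, Irf3 and Irf8 were brighter than at least 97% of all probe sets that were not controls. This is a rank of signal and not of transcript number.

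**Figure D4:**
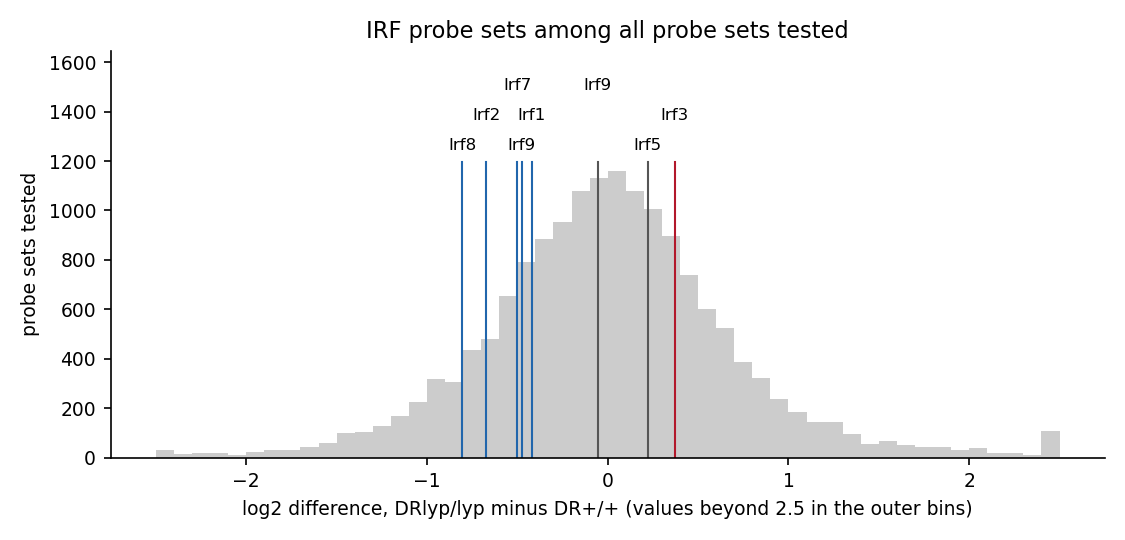
Number of probe sets tested by log2 difference, DRlyp/lyp minus DR+/+, in bins of equal width, with the 8 IRF probe sets drawn as lines (blue called lower, red called higher, grey not called). Irf8 at -0.80 is the leftmost line and Irf3 at 0.37 the rightmost, and all lie within the bulk of the 16068 probe sets.

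The other genes of the pathway were followed in 7 lists, 108 of whose 137 genes had a probe set and 96 passed the filter. Each gene was read from the brightest, by mean log2 signal, of its tested probe sets. Of these 96 genes, the DRlyp/lyp pool had 14 higher and 43 lower. Of all 9349 genes tested 20.9% were higher and 21.1% lower. No interferon gene passed the filter. Ifnb1, Ifng and Ifnk, the 3 of 10 listed with a probe set, stayed at or below 9.0 on all 4 arrays.

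The sensors, adaptors and kinases that act upstream of Irf3, Irf5 and Irf7 were more often lower. Among 22 tested there were 3 higher and 10 lower genes, and the median log2 difference was -0.24. Dhx58, a helicase that modulates RNA sensing in the cytoplasm, averaged 69.5 ± 0.78 in the DRlyp/lyp pool and 190.2 ± 1.27 in the DR+/+ pool (SD, 2 arrays each). All 3 of its probe sets were called. Tank, an adaptor of the kinases that phosphorylate Irf3 and Irf7, averaged 166 ± 2.33 in the DRlyp/lyp pool and 364.5 ± 19.9 in the DR+/+ pool. Slc15a4, an endolysosomal transporter that Irf5 activation needs, was 1.79-fold lower, and the endosomal RNA receptor Tlr8 1.66-fold lower. Ticam1, the adaptor of Toll-like receptor signals to Irf3, was 1.72-fold lower, but not past the threshold without DRlyp/lyp replicate 1 or 2 (adjusted p = 0.0567 and 0.0879 in limma). Tbk1 itself, chosen after its values were seen, read 1201 and 1261 on the DRlyp/lyp arrays, against 1760 and 1962 on the DR+/+ arrays. It was thus lower (log2 difference -0.59) in the pool where Irf3 was higher. Tbkbp1, a Tbk1-binding adaptor, was 2.03-fold higher at 154 ± 7.0 in the DRlyp/lyp pool and 75.7 ± 7.71 in the DR+/+ pool. Traf3, a ubiquitin ligase of the same branch, was 1.36-fold higher, but missed the threshold when DRlyp/lyp replicate 1 was left out (adjusted p = 0.0599 in limma). Unc93b1, a chaperone of endosomal Toll-like receptors, was 1.14-fold higher, but not past the threshold with arrays centred on their medians (adjusted p = 0.549 in limma) or without any 1 of DRlyp/lyp replicates 1 and 2 and DR+/+ replicate 1 (0.0779, 0.153 and 0.123). Without DRlyp/lyp replicate 1 the list held 1 higher and 6 lower genes.

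The receptors for interferon and their kinases and STATs showed no common direction. Among 11 tested there were 1 higher and 2 lower genes, and the median was 0.022. Ptpn2, a phosphatase that turns off Janus kinases and STATs, was higher at 1550 ± 137 in the DRlyp/lyp pool and 1109 ± 18.3 in the DR+/+ pool. Stat2, the partner of Irf9 in ISGF3, was 1.31-fold lower with both of its probe sets called, and Jak2, a kinase of the interferon-gamma receptor, 1.52-fold lower. Both calls were lost without DRlyp/lyp replicate 1 (adjusted p = 0.0756 and 0.129 in limma) and without DRlyp/lyp replicate 2 (adjusted p = 0.0689 and 0.104 in limma). Jak2 also lost its call without DR+/+ replicate 1 (adjusted p = 0.0515 in limma). Without DR+/+ replicate 2 the list held 4 lower genes. Of 5 cofactors tested, 0 were higher in limma (0 also at an unadjusted p under 0.05) and 2 lower, the corepressor Irf2bp2 (1.46-fold) and the acetyltransferase Crebbp (1.39-fold). Both lost the call without DRlyp/lyp replicate 1 (log2 differences of -0.44 and -0.40). Crebbp turned to 0.18 with the mean of its 3 probe sets, which were all called, but not in the same direction.

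Among tested genes of interferon responses, more were called lower than higher, and others were not called. Among antiviral targets of ISGF3, 27 tested genes included 2 higher and 17 lower ones, with 8 not called, and the median was -0.53. Mx2, a dynamin-like antiviral GTPase, averaged 69.4 ± 17.4 in the DRlyp/lyp pool and 261 ± 51.6 in the DR+/+ pool, which was 3.79-fold lower. Ifit3, which binds the complexes of RNA sensing, was 2.72-fold lower, the chemokine Cxcl10 2.38-fold lower and the helicase Ddx60 1.94-fold lower. Herc6, an interferon-induced ubiquitin ligase, was 2.06-fold lower, but not past the threshold without DRlyp/lyp replicate 1 or DR+/+ replicate 1 (adjusted p = 0.332 and 0.273 in limma). Isg15, a ubiquitin-like protein that interferon induces strongly, named after its values were seen, read 440.3 and 395 on the DRlyp/lyp arrays, against 394 and 413 on the DR+/+ arrays, which overlapped. The higher genes were Ifi27l2b (1.55-fold) and Ifi35 (1.38-fold). Among targets of Irf1 and interferon-gamma, 19 tested genes included 2 higher and 10 lower ones, with 7 not called, and the median was -0.29. Cxcl11, a chemokine for Cxcr3-bearing cells, averaged 169 ± 4.45 in the DRlyp/lyp pool and 476 ± 67.5 in the DR+/+ pool, which was 2.80-fold lower. Cxcl9, another ligand of that receptor, was 2.68-fold lower, the cytokine Il15 2.51-fold lower, the interleukin-binding protein Il18bp 2.22-fold lower and the guanylate-binding protein Gbp2 2.05-fold lower. The higher genes were B2m, the light chain of MHC class I, and Ciita, the activator of MHC class II genes. B2m turned from 0.27 to -0.0098 with quantile normalization. Ciita turned from 0.31 to -0.11 with the mean of its 2 probe sets, which were both called, in opposite directions. B2m and Ciita also missed the threshold with arrays centred on their medians (adjusted p = 0.0887 and 0.119 in limma). In the promoter windows of these lists, the ISRE core letters were found in 64% of 25 ISGF3 targets and 63.6% of 22 Irf1 targets. Their share of all 33469 promoters was 3.92%. The GAS letters were found in 28% and 22.7% of these lists, against 8.87% of all promoters. Genes entered these lists as targets of interferon responses, so the shares are not an independent result.

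**Figure D5:**
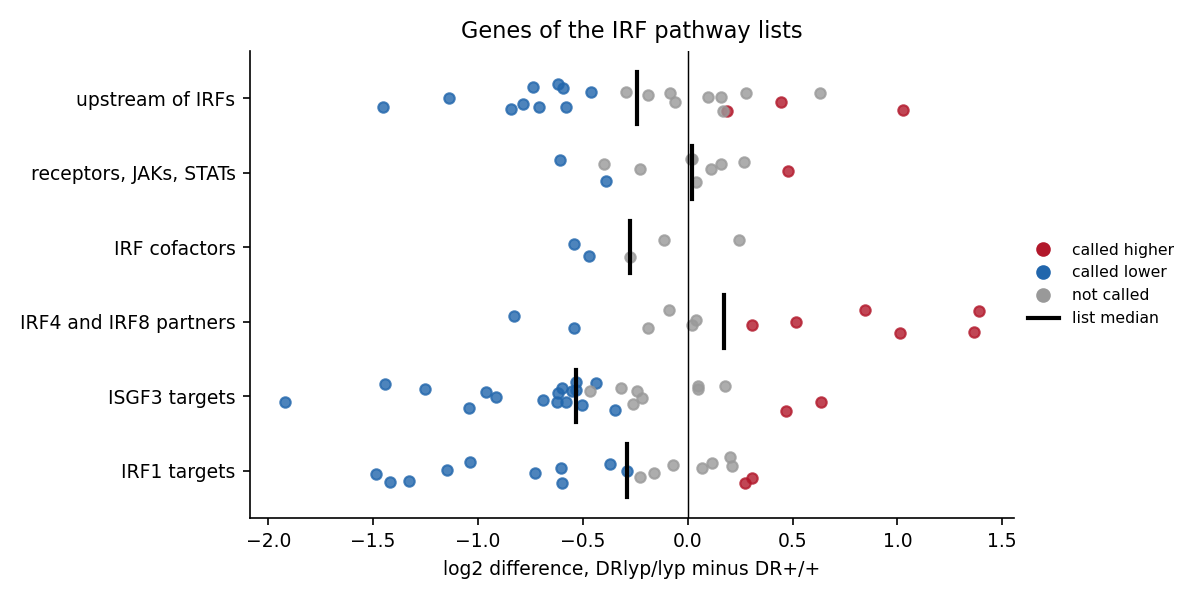
Log2 difference, DRlyp/lyp minus DR+/+, of each tested gene in 6 of the pathway lists, coloured by its call in limma, with a black bar for the list median. The ISGF3 targets have the lowest median (-0.53), and the partner factors of Irf4 and Irf8 have the highest (0.17).

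The partner factors and lineage targets of Irf4 and Irf8 went both ways. Among 12 tested there were 6 higher and 2 lower genes, and the median was 0.17. Batf, an AP-1 type partner of Irf4 and Irf8, was higher at 457 ± 6.08 in the DRlyp/lyp pool and 255 ± 16.4 in the DR+/+ pool. Batf3, a relative that Irf8 works with in dendritic cells, was 2.02-fold higher, but missed the threshold when DRlyp/lyp replicate 1 was left out (adjusted p = 0.0532 in limma). The B lineage factors Ebf1 (1.78-fold) and Pou2af1 (1.46-fold) were lower. Id2, Zeb2 and Nfatc2 were also higher by their brightest probe sets. Both probe sets of Id2 were called, in opposite directions, and their mean was -0.23. Of the 4 probe sets of Zeb2, 3 were called. The mean over the 4 was -0.074, so they did not all go the same way. Nfatc2 lost its call without DRlyp/lyp replicate 1 and without DR+/+ replicate 1 (adjusted p = 0.135 and 0.0553 in limma). Without DRlyp/lyp replicate 1 the list held 3 higher genes.

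The preparations were not of mast cells alone, and in such bulk samples fewer cells of a type and less RNA per cell cannot be told apart. Summed over 16 mast cell markers, signal was 3528 and 3411 on the DRlyp/lyp arrays, against 2298 and 2285 on the DR+/+ arrays. Within these sums, Mcpt1 alone read 1665 and 1602 on the DRlyp/lyp arrays, against 669 and 655 on the DR+/+ arrays. The members went both ways: of 14 tested, 5 were higher (Fcer1a, Mcpt1, Mcpt4, Il1rl1 and Mitf) and 3 lower (Tpsab1, Tpsb2 and Hpgds). Over all 9349 genes tested, 20.9% were higher and 21.1% lower, which applies to each marker count here. Cpa3, Cma1 and Ms4a2 were measured in both pools and not called, and Kit did not exceed 11.3 on any array. Summed over 19 macrophage and dendritic cell markers, signal was 15249 and 15349 on the DRlyp/lyp arrays, against 19794 and 20728 on the DR+/+ arrays. The markers within that sum were split. Of 18 tested, 8 were lower (Csf1r, Adgre1, C1qa, C1qb, C1qc, Mertk, Mmp12 and Gpnmb) and 6 higher (Cd68, Itgax, Clec10a, Cd83, Ccl22 and Ccl17). Summed over 12 B cell markers it was 16838 and 18011 on the DRlyp/lyp arrays, against 20955 and 22568 on the DR+/+ arrays, with 0 of 12 higher in limma (0 also at an unadjusted p under 0.05) and 6 lower. For 9 plasma cell markers the sums were 21840 and 22188 on the DRlyp/lyp arrays, against 19414 and 19958 on the DR+/+ arrays. Of these 9, 2 were higher (Jchain and Mzb1) and 3 lower (Tnfrsf17, Fkbp11 and Sec11c), with a median log2 difference of 0.016. In the same order of arrays, the sums were 6862 and 6967 against 5687 and 5240 for 13 NK cell markers. Of 12 tested, 5 were higher and 2 lower (Ncr1 and Gzmb). For 8 neutrophil markers the sums were 3189 and 3236 against 1686 and 2006. Of 5 tested, 3 were higher and 0 lower in limma (0 also at an unadjusted p under 0.05). Fcnb alone read 2078 and 2119 against 994 and 1168. The 5 plasmacytoid dendritic cell markers with a probe set summed to 3244 and 2887 on the DRlyp/lyp arrays, against 3298 and 2981 on the DR+/+ arrays, which overlapped. These markers were split: Tcf4 was higher, Tlr7 and Bst2 were lower, and Il3ra and Pacsin1 were not called. Their median log2 difference was -0.60. Tcf4 carried most of each sum, at 2344 and 2027 on the DRlyp/lyp arrays, against 1846 and 1679 on the DR+/+ arrays. Exocrine pancreas transcripts, 17 in number, summed to 11022 and 11527 on the DRlyp/lyp arrays, against 273 and 274 on the DR+/+ arrays. The beta-actin control's 3′ probe set exceeded its 5′ one, on the log2 scale, by 4.43 and 4.55 on the DRlyp/lyp arrays, against 3.01 and 3.10 on the DR+/+ arrays. For the GAPDH control the excess was 2.49 and 2.44 on the DRlyp/lyp arrays, against 1.74 and 1.57 on the DR+/+ arrays. Such an excess tells of how far the amplified RNA reaches. The part of each of these, and of the T cell markers, in the IRF differences was not tested, and with 1 pool per group they cannot be told apart from genotype.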

How the data were processed

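Signal was measured on 4 Affymetrix rat arrays, 2 per pool, after amplification of about 50 ng of RNA in 2 cycles, per the series' design text. The authors deposited 1 linear intensity for each probe set on each array. What program computed it is not given in the sources used here. Their 2% trimmed mean was 150.1 on each array.

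A floor of 6.8, the 25th percentile of all values, was set before taking log2. Control probe sets (57) were left out. Those exceeding 28.3 on 2 or more arrays were tested with limma 3.58.1 in R 4.3.3 (intensity trend, 2 residual degrees of freedom, two-sided). Folds are on the floored scale. The test was checked on simulated data.

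Gene names came from the platform annotation. The files name no genome build; promoters and their coordinates are RefSeq's (GRCr8), matched by symbol for 7 of 8 members. Protein comparison was not used here.

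The members, lists and tests were chosen with earlier results of these data known. Named were all member probe sets, up to 5 called genes each way per pathway list, and genes said to be chosen later. Marker lists of mast, T, B, plasma, NK, neutrophil, macrophage and dendritic, plasmacytoid and exocrine cells were counted: 5, 16, 0, 2, 5, 3, 6, 1 and 17 higher, and 3, 1, 6, 3, 2, 0, 8, 2 and 0 lower, of 14, 17, 12, 9, 12, 5, 18, 5 and 17 tested in limma (each count of 0 was also 0 at an unadjusted p under 0.05). Alternatives changed the scaling, filter, floor, offset, variance trend, threshold, probe set rule, replicate block and arrays used.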

Additional observations from a re-analysis of the deposited data

How the results depend on the processing

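All 8 IRF probe sets kept their direction under all 13 alternatives that give a difference, except Irf9 probe set 1383448_at, which was 0.015 without DR+/+ replicate 2. Quantile normalization, the filter at the 75th percentile, the floor at the 10th percentile and the offset of 50 changed no IRF call. With the replicate number as a block the counts were 1 higher and 5 lower IRF probe sets, and 3492 and 3552 of all probe sets; same-numbered arrays did not deviate together (correlation 0.044 over 16068 probe sets), and the block changed no IRF call. Centring each array on its median left 0 higher (limma; 1 at an unadjusted p under 0.05), with Irf3 at 0.26. With no filter, 0 were higher (1 unadjusted) and 1 lower, for 1 gene: Irf1 (-0.42, adjusted p = 0.0731), Irf2 (-0.67, 0.185), Irf3 (0.37, 0.0643), Irf8 (-0.80, 0.0682) and Irf9 (-0.47, 0.0573) lost their calls. All probe sets called were then 844 higher and 827 lower, and pathway genes 5 and 11. Without an intensity trend, 0 were higher (1 unadjusted) and 2 lower, for 2 genes; Irf1 (adjusted p = 0.0682), Irf2 (0.0644), Irf3 (0.0824) and Irf9 (0.0523) lost theirs, with 1932 and 2125 of all probe sets and 7 higher pathway genes. Tested against a 1.5-fold difference, 0 were called in limma (0 higher and 1 lower unadjusted), with adjusted p = 0.149 for Irf8 and 1 for Irf1, Irf2, Irf3, Irf7 and Irf9, whose differences of -0.42, -0.67, 0.37, -0.50 and -0.47 are as before. That test called 480 and 478 of all probe sets and 2 and 8 pathway genes. With a 2-fold minimum 0 IRF probe sets, 975 and 953 of all, and 4 and 11 pathway genes remained past the threshold. The cause of these losses was not tested.

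Leaving out each array gave 1 higher and 3 to 5 lower IRF probe sets, with Irf2 between -0.87 and -0.48, Irf9 probe set 1374627_at between -0.53 and -0.42 and 1383448_at between -0.12 and 0.015. Of all probe sets, 1595 to 2987 were then higher and 1883 to 2813 lower, against 3104 and 3198 with all arrays, and of pathway genes 9 to 14 higher. The lone array was assumed to vary like the other pool. Of 34 named pathway genes, 10 lost the call without DRlyp/lyp replicate 1, 21 without a filter and 24 against 1.5-fold. Reversed were B2m (-0.0098, quantile normalization) and, with the mean of their probe sets, Crebbp (0.18), Id2 (-0.23), Zeb2 (-0.074) and Ciita (-0.11).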
